A study of Saccharomyces cerevisiae with 24 samples.

Results

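The phosphate response genes described here are 10 genes of budding yeast (Saccharomyces cerevisiae), taken from the table by their systematic names. These are PHO5 (YBR093C), PHO11 (YAR071W), PHO12 (YHR215W), PHO3 (YBR092C), PHO8 (YDR481C), PHO84 (YML123C), PHO89 (YBR296C), SPL2 (YHR136C), VTC3 (YPL019C) and PHM6 (YDR281C). They are 10 of the 7126 genes listed beside the spike-in sequences. All 10 passed the filter on low counts in polyA-selected RNA, and 8 in total RNA, where SPL2 and PHM6 had only 20 and 24 reads over all 12 libraries and were left out of the fit.

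In phosphate-rich medium, the cyclin-dependent kinase Pho85 with its cyclin Pho80 phosphorylates the transcription factor Pho4 and keeps it out of the nucleus. When phosphate is scarce, the inhibitor Pho81 blocks the kinase, and Pho4, together with Pho2, switches on genes that release, import and store phosphate. Some of these genes are also known to be expressed in mitosis in cells that are not starved.

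The control strain (W303-1A, Mat a) carried YCG1-3PK::K.lactis TRP1, an epitope-tagged subunit of condensin, a ring complex that shapes chromosomes. The Ycg1Degron1 strain, in the same background, carried pMET3-YCG1-3PK-3miniAID::KANMX6, marked with K.lactis URA3, and ADE2::pADH1-OsTIR1-9Myc, so that methionine shuts off YCG1 and auxin marks the protein for destruction through OsTIR1, a plant protein made from the ADH1 promoter. Both strains grew at 25°C without methionine, were held in G1 with the mating pheromone α-factor for 1.5 h, and then spent 2 h in rich YPD medium with 88 μg/ml auxin, still in G1. The M samples came from the same cultures after release and 2 h in nocodazole, which arrests cells in mitosis, so the M cells had replicated their DNA and had been in YPD for longer. PolyA and total RNA libraries were made from 3 biological replicates of each strain and arrest, 24 libraries in all. The columns of the table name the arrest, the library type, the replicate and a code, 14 or 18. The code presumably stands for the strain, but the labels used here do not explain it, and strains were not assigned. The comparisons below are therefore between arrests and between codes. Every culture received auxin and the change of medium, so there is no untreated sample.

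PolyA libraries held 10282599 to 22171825 reads, of which 2.24 to 10.5% were ribosomal RNA. Total libraries held 13932410 to 21650543 reads, of which 95.5 to 96.0% were ribosomal, leaving 564083 to 929948 for all other genes. Levels are given as CPM, a gene's counts relative to the scaled total of reads outside ribosomal RNA in the same library. The arrest labels were checked with marker genes. All 5 pheromone-induced markers (such as FUS1 and AGA1) were lower in M, and all 6 mitotic markers (such as CLB2 and CLB1) were higher, in both library types and both codes. Summed over the list, the pheromone markers ranged from 5911 to 11243 CPM in G1 polyA libraries and from 128 to 312 CPM in M. The mitotic markers ranged from 128 to 169 CPM in G1 and from 657 to 785 CPM in M.

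Upstream sequences were taken from the RefSeq R64 reference (strain S288C, the same assembly as in the table's annotation, and not W303). The 600 bp before each start codon were searched on both strands for the core that Pho4 binds, CACGTG, and for the related CACGTT. No stretch can be both, although the motifs share 5 letters, and CACGTG reads the same on both strands. CACGTG stood upstream of 9 of the 10 genes, against 7.23% of 6002 coding genes. CACGTT stood upstream of 8 of the 10, against 18.8%. PHO3 was the gene with neither. SPL2 had 4 copies of CACGTG, and PHO84 and VTC3 had 2 each. At PHO8 and PHO84 all matches, and the PHO84 window printed here, lay inside an annotated neighbouring gene, CWC21 and YML122C respectively. The genes were chosen by name as phosphate response genes, so a high share of Pho4 cores describes the list and is not a test. PHO11 and PHO12 are counted separately, although CACGTG begins 283 bp before the start codon in both. These are matches of letters, not mapped binding sites.

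**Figure D1:**
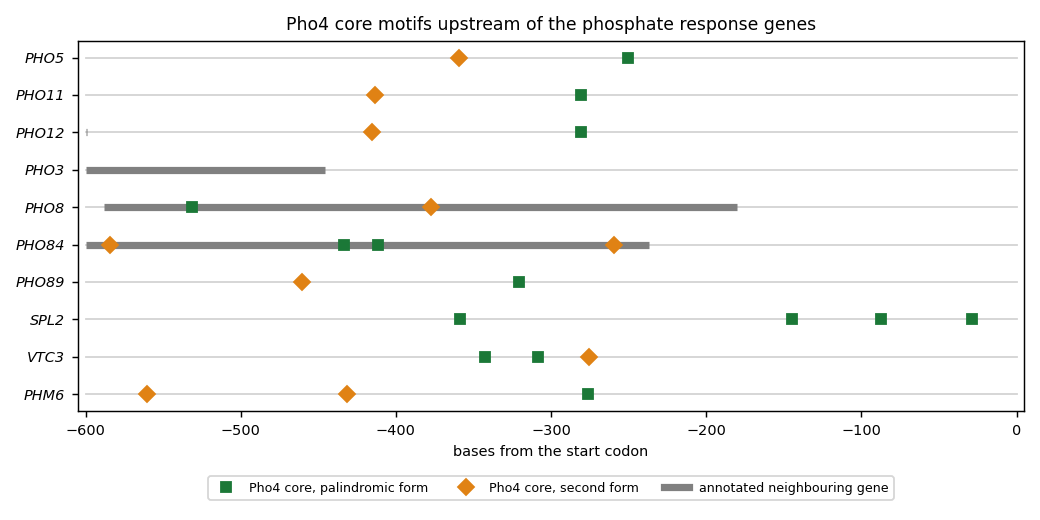
Position of the Pho4 core CACGTG (squares) and of CACGTT (diamonds) in the 600 bp before the start codon of each gene, on the x axis in bases from the start codon. Thick grey bars mark an annotated neighbouring gene. Matches stand upstream of 9 of the 10 genes, and PHO3 has none.

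The following windows are shown because the results below turn on the levels of these genes, and capitals mark the motif matches, with AACGTG being CACGTT read from the other strand. They lie on the minus strand at chrII:431171-431351 (PHO5), chrXIII:26040-26260 (PHO84), chrXVI:517271-517383 (VTC3) and chrVIII:375230-375480 (SPL2), and on the plus strand at chrVIII:551661-551841 (PHO12), and each reads 5′ to 3′ towards the gene. The SPL2 window holds 2 of its 4 matches, and the PHO84 window leaves out the farthest match.
PHO5: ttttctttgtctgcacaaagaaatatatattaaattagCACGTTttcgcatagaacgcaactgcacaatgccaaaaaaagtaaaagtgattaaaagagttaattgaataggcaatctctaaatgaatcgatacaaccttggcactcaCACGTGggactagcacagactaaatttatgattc
PHO12: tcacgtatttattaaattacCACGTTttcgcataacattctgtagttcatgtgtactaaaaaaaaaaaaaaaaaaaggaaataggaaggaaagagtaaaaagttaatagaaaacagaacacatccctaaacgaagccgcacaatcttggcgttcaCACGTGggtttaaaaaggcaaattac
PHO84: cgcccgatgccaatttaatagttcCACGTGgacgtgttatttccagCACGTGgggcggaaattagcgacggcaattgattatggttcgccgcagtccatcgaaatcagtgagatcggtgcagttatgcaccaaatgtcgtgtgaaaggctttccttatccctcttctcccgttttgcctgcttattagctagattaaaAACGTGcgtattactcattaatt
SPL2: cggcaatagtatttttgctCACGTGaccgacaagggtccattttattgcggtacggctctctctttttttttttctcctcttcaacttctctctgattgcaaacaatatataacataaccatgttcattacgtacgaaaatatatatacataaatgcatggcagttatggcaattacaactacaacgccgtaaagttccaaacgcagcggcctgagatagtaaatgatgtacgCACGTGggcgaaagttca
VTC3: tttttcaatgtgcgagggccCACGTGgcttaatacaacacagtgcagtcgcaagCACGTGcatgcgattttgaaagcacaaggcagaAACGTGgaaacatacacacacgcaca

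PHO5 encodes the main phosphate-repressible acid phosphatase, an enzyme secreted to the cell wall that frees phosphate from organic compounds. It lies on chromosome II (429548 to 430951, minus strand). In polyA libraries of code 14, PHO5 stood at 8.04, 9.67 and 6.32 CPM in G1 and at 185, 344 and 219 CPM in M. Every M library of code 14 was thus far above every G1 library, and PHO5 was 30.5-fold higher in M (log2 fold change 4.93, SE 0.27, n = 3 per arrest, adjusted p = 7.31e-08 by edgeR). In code 18, it went the other way, from 58.2, 77.6 and 53.0 CPM in G1 to 23.5, 32.4 and 24.2 CPM in M. That was a 2.36-fold fall (log2 fold change -1.24, SE 0.23, adjusted p = 0.0013). The order of the codes turned over between the arrests, as code 18 was 7.68-fold higher in G1 (adjusted p = 1.78e-05) and 9.40-fold lower in M (adjusted p = 7.34e-06). The interaction, which tests whether the M over G1 change differs between codes, was -6.17 on the log2 scale (SE 0.36, adjusted p = 3.78e-06). It ranked 4 by size among 5832 genes tested.

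Total RNA gave the same directions for PHO5. Code 14 held 1.54, 18.8 and 8.44 CPM in G1 and 140, 301 and 172 CPM in M, a 20.8-fold rise (adjusted p = 3.65e-07). Code 18 held 62.5, 61.6 and 56.1 CPM in G1 and 8.78, 22.1 and 12.4 CPM in M, a 4.27-fold fall (adjusted p = 0.00193). G1 and M libraries did not overlap within either code. The interaction was -6.47 (SE 0.59, adjusted p = 1.4e-05). The G1 libraries of code 14 held only 1.08, 12.95 and 6.47 reads of PHO5, so the size of the rise is uncertain. Without replicate 2 of code 14 in G1, its lone library near 19 CPM, the rise was 5.28 instead of 4.38 on the log2 scale. The interaction was then -7.37, and code 18 was higher in G1 by 3.50 instead of 2.60. Without replicate 1 of code 14 in G1, the library at 1.54 CPM, the rise was 3.91. The interaction was then -6.01, and code 18 was higher in G1 by 2.13.

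PHO11 and PHO12 encode minor repressible acid phosphatases near the ends of chromosomes I and VIII. PHO11 lies 3.35 kb and PHO12 9.14 kb from the nearer end. Their reading frames of 1404 bp differ at 4 positions, and only 17.8% of the 76-base windows in PHO11 and 18.9% in PHO12 are unique to that gene, against 95.3% in PHO5 and 97.0% in PHO3. Reads were divided between the pair by RSEM, so their separate values are uncertain and their sum is the firmer quantity. The stretch around their first difference (bases 253 to 293 of each reading frame) is shown with the base that differs in capitals.
PHO11: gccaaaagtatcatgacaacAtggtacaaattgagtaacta
PHO12: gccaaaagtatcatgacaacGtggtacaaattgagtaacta

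The sum of PHO11 and PHO12 in polyA libraries of code 14 was 36.6 ± 3.69 CPM (SD, n = 3) in G1 and 517 ± 193 CPM in M. In code 18 the sum was 75.6 ± 14.4 CPM in G1 and 58.4 ± 5.44 CPM in M. The M libraries of code 14 ranged from 389 to 739 CPM, above all libraries of the other 3 cells. For PHO12 alone, G1 libraries of code 14 held 23.4, 31.5 and 25.1 CPM and M libraries 284, 523 and 301 CPM. That was a 13.7-fold rise (log2 fold change 3.78, SE 0.26, adjusted p = 5.04e-07). In code 18, PHO12 held 58.1, 62.3 and 40.3 CPM in G1 and 44.0, 54.9 and 38.9 CPM in M, which overlap (adjusted p = 0.488). PHO11 rose 15.0-fold in code 14 (adjusted p = 2.56e-06) and had a log2 fold change of -0.79 in code 18 (SE 0.30, adjusted p = 0.0582). PHO11 and PHO12 were higher in code 18 than in code 14 in G1, by 2.21-fold (adjusted p = 0.0284) and 1.99-fold (adjusted p = 0.0168). The G1 difference of PHO11 was not called without any of 5 of the 6 G1 libraries in turn, nor that of PHO12 without any of 3 of them, with adjusted p of 0.0537 to 0.0982 in those fits. In M they were lower in code 18, by 11.8-fold for PHO11 (adjusted p = 1.95e-05) and 8.08-fold for PHO12 (adjusted p = 1.15e-05). The interaction was -4.70 for PHO11 (SE 0.44, adjusted p = 0.000147) and -4.01 for PHO12 (SE 0.35, adjusted p = 0.000125).

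In total RNA, the sum of PHO11 and PHO12 was 28.1 ± 9.50 CPM in G1 and 309 ± 126 CPM in M of code 14, and 55.5 ± 18.2 CPM and 41.1 ± 9.10 CPM in code 18. The split between the genes was unstable there, since replicate 2 of code 18 in M gave 0 CPM for PHO11 and 51.5 CPM for PHO12. The interaction passed the test for both, with -4.20 for PHO11 (SE 0.85, adjusted p = 0.0148) and -3.88 for PHO12 (SE 0.50, adjusted p = 0.00027). For PHO11, leaving out replicate 1 of code 18 in M moved the interaction to -5.55, and leaving out replicate 2 of code 14 in M moved it to -3.57. The difference between codes in M was -3.40 for PHO11, and it was -4.75 and -2.77 without those same libraries. The rise of PHO11 within code 14 was 2.67 on the log2 scale, and 2.05 without replicate 2 of code 14 in M.

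PHO3, which adjoins PHO5 on chromosome II at a distance of 446 bp and is 86.5% identical to it, encodes an acid phosphatase that is repressed by thiamine and not by phosphate. In polyA libraries it held 220, 234 and 241 CPM in G1 and 466, 395 and 462 CPM in M of code 14. In code 18 it held 209, 222 and 207 CPM in G1 and 471, 565 and 433 CPM in M. PHO3 was thus higher in M in both codes, with log2 fold changes of 0.93 in code 14 (SE 0.10, adjusted p = 2.08e-05) and 1.20 in code 18 (SE 0.10, adjusted p = 2.43e-06). The codes were not called different in G1 (log2 fold change -0.13, SE 0.10) or in M (0.15, SE 0.10), and the interaction was 0.28 (SE 0.14, adjusted p = 0.276). Total RNA gave 1.36 in code 14 (SE 0.12, adjusted p = 2.68e-07) and 1.32 in code 18 (SE 0.12, adjusted p = 2.09e-07). PHO3 was therefore called between arrests and not between codes, whereas its neighbour PHO5 was called in both.

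**Figure D2:**
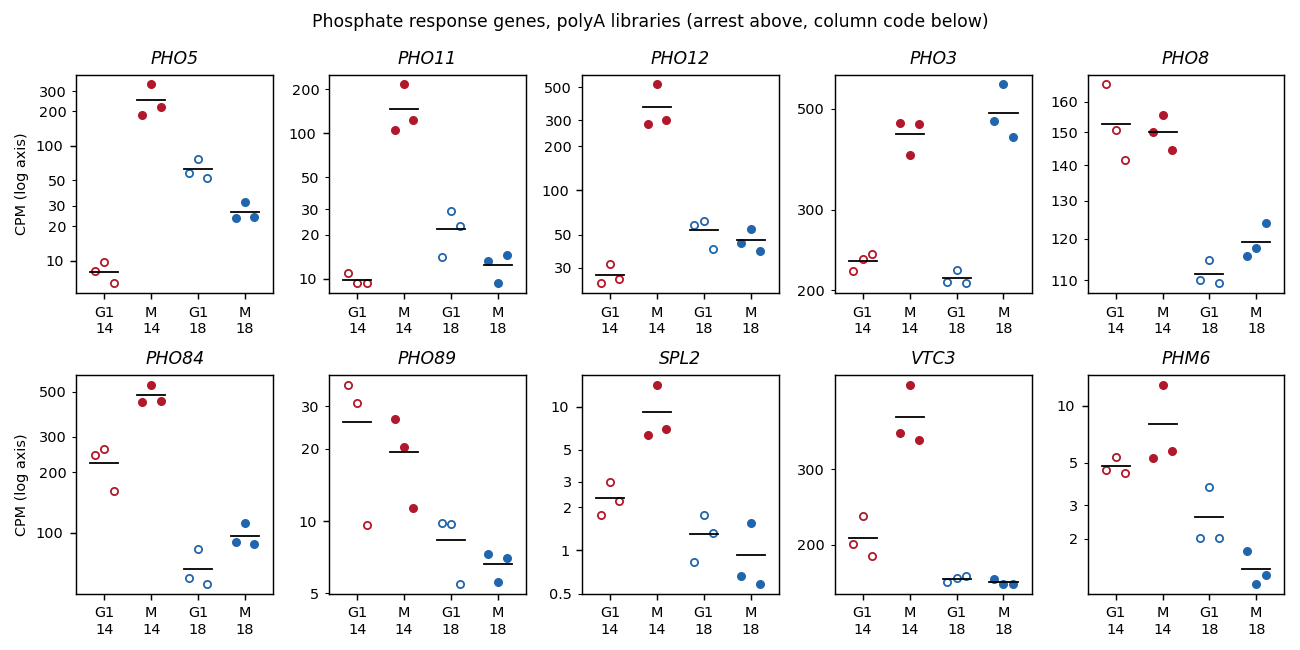
CPM on a log axis in the 12 polyA libraries for each of the 10 genes. Points are libraries, open for G1 and filled for M, red for code 14 and blue for code 18, and black bars are means of 3. PHO5 rises from 6.32 to 9.67 CPM in G1 to 185 to 344 CPM in M of code 14, while it falls in code 18.

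PHO84, the high-affinity proton-coupled phosphate importer of the plasma membrane, differed between the codes in both arrests. Its polyA level in code 14 was 242, 260 and 161 CPM in G1 and 447, 542 and 450 CPM in M. In code 18 it was 59.8, 83.6 and 56.0 CPM in G1 and 89.9, 111 and 88.6 CPM in M. The codes did not overlap in either arrest, and code 18 was 3.34-fold lower in G1 (log2 fold change -1.74, SE 0.19, adjusted p = 0.00011) and 4.97-fold lower in M (-2.31, SE 0.19, adjusted p = 1.25e-05). M exceeded G1 2.17-fold in code 14 (adjusted p = 0.000593) and 1.46-fold in code 18 (adjusted p = 0.0393). The call in code 18 was lost without any 1 of 5 of the 6 libraries of that code, with adjusted p of 0.0543 to 0.133. The interaction was -0.58 (SE 0.26, adjusted p = 0.232), so a difference in the M over G1 change was not shown in polyA RNA. In total RNA code 14 held 175, 248 and 170 CPM in G1 and 434, 538 and 364 CPM in M, and code 18 held 84.6, 82.5 and 94.3 CPM in G1 and 87.8, 109 and 88.3 CPM in M. There the interaction was called at -1.06 (SE 0.24, adjusted p = 0.026), but it was not called without any 1 of 6 libraries (adjusted p 0.0651 to 0.0888). An annotated antisense transcript, YNCM0001W, spans PHO84 on the opposite strand and is not a row of the table, which was counted by strand.

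PHO89 encodes a sodium-coupled importer used at alkaline pH. In polyA libraries it held 36.9, 30.9 and 9.58 CPM in G1 and 26.4, 20.4 and 11.3 CPM in M of code 14. In code 18 it held 9.81, 9.74 and 5.49 CPM in G1 and 7.27, 5.60 and 7.02 CPM in M. Replicate 3 of code 14 stood lower than the other two in both arrests, and in G1 it fell within the range of code 18. Code 18 was lower by 3.09-fold in G1 (adjusted p = 0.022) and by 2.90-fold in M (adjusted p = 0.0397). These calls were lost without any 1 of 4 libraries in G1 (adjusted p 0.0525 to 0.0886) and of 8 libraries in M (adjusted p 0.0526 to 0.120). M against G1 was -0.42 in code 14 (SE 0.41) and -0.32 in code 18 (SE 0.44), and neither passed the test. Total RNA held at most 19 reads of PHO89 per library. The codes were not called different there, with log2 fold changes of -1.47 in G1 (SE 0.52, adjusted p = 0.105) and -1.98 in M (SE 0.60, adjusted p = 0.0813). Each was called without replicate 3 of code 14 in that arrest, with -1.83 in G1 (adjusted p = 0.0305) and -2.39 in M (adjusted p = 0.0167).

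SPL2 encodes a small protein that restrains low-affinity phosphate uptake when phosphate is short. It was the lowest of the 10 genes per kilobase in 3 of the 4 cells of polyA libraries. In code 14 it held 1.76, 3.00 and 2.21 CPM in G1 and 6.35, 14.2 and 7.01 CPM in M, a 3.86-fold rise (log2 fold change 1.95, SE 0.39, adjusted p = 0.00212). In code 18 it held 0.829, 1.77 and 1.31 CPM in G1 and 0.666, 1.54 and 0.585 CPM in M (log2 fold change -0.51, SE 0.51, adjusted p = 0.46). SPL2 was 10.5-fold lower in code 18 in M (log2 fold change -3.39, SE 0.44, adjusted p = 0.00041), with no overlap between the codes. The M libraries of code 18 held only 10 to 16 reads of SPL2 each. Leaving out 1 library at a time gave 1.49 to 2.21 for the rise in code 14. It gave -3.86 to -2.93 for the difference between codes in M, and both stayed called. In G1 the difference was -0.94 (SE 0.45, adjusted p = 0.187). The interaction of -2.46 (SE 0.64) missed the threshold at adjusted p = 0.0541, and with the pairing of G1 and M samples from the same culture entered as a block it passed at adjusted p = 0.0166.

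VTC3 encodes a subunit of the vacuolar transporter chaperone complex, which makes polyphosphate, the cell's phosphate store. Its polyA level was 201, 233 and 189 CPM in G1 and 365, 473 and 352 CPM in M of code 14. In code 18 it was 164, 167 and 169 CPM in G1 and 166, 162 and 162 CPM in M. VTC3 thus rose 1.91-fold in code 14 (log2 fold change 0.93, SE 0.11, adjusted p = 4.22e-05), while the estimate in code 18 was -0.03 (SE 0.11, adjusted p = 0.866). The interaction was called in polyA RNA at -0.96 (SE 0.15, adjusted p = 0.00568). Code 18 was 2.42-fold lower in M (adjusted p = 1.42e-05), and in G1 the difference of -0.32 (SE 0.11) was not called (adjusted p = 0.0664). In total RNA VTC3 rose 1.74-fold in code 14 (adjusted p = 0.00649), which was not called without replicate 2 of code 14 in M (adjusted p = 0.0533). The interaction there was -0.75 (SE 0.27, adjusted p = 0.175), and adjusted p = 0.0465 with the block for pairing.

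PHM6 is a short gene of unknown function. In polyA libraries it held 4.61, 5.34 and 4.42 CPM in G1 and 5.33, 12.9 and 5.78 CPM in M of code 14, and 2.03, 3.74 and 2.01 CPM in G1 and 1.72, 1.16 and 1.29 CPM in M of code 18. It was 5.66-fold lower in code 18 in M (SE 0.37 on the log2 scale, adjusted p = 0.00126). In G1 the difference was -0.94 (SE 0.36, adjusted p = 0.101), although the libraries of the codes did not overlap. M against G1 was 0.73 in code 14 (SE 0.34, adjusted p = 0.109) and -0.83 in code 18 (SE 0.40, adjusted p = 0.122).

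PHO8 encodes the alkaline phosphatase of the vacuole. In polyA libraries it held 142 to 166 CPM in G1 and 145 to 156 CPM in M of code 14, and 109 to 115 CPM in G1 and 116 to 124 CPM in M of code 18. The codes did not overlap in either arrest, and code 18 was 1.37-fold lower in G1 (adjusted p = 0.000792) and 1.26-fold lower in M (adjusted p = 0.00759). M against G1 was -0.02 in code 14 (SE 0.07) and 0.10 in code 18 (SE 0.07). In total RNA the differences between codes were -0.24 in G1 (SE 0.17, adjusted p = 0.484) and -0.23 in M (SE 0.17, adjusted p = 0.571).

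Counted over the genes, 6 of the 10 were called higher in M in polyA RNA when the codes were averaged. Over all genes, 25.7% were called higher. PHO11 and PHO12, whose shared reads were divided between them, are counted here and below as separate genes, and their sum was not tested. Since PHO5 moved in opposite directions in the codes, this average describes neither code. Within code 14, 7 of 10 were called higher (PHO5, PHO11, PHO12, PHO3, PHO84, SPL2 and VTC3), against 19.1% of all genes, and the count was again 7 when any single library was left out. Within code 18, PHO3 and PHO84 were called higher and PHO5 lower, 3 of 10 against 37.6% of all genes called in either direction. That count was 5 without replicate 2 of code 14 in M. The median log2 fold change of the 10 genes was 1.02 in code 14 and -0.28 in code 18, against 0.0090 and 0.0016 over all genes. In total RNA, 5 of the 8 tested were called higher with the codes averaged (background 12.1%), 6 of 8 within code 14 (background 8.99%), and within code 18 PHO3 was called higher and PHO5 lower, 2 of 8 (background 14.2% in either direction). The averaged count was 3 without replicate 1 of code 14 in G1.

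**Figure D3:**
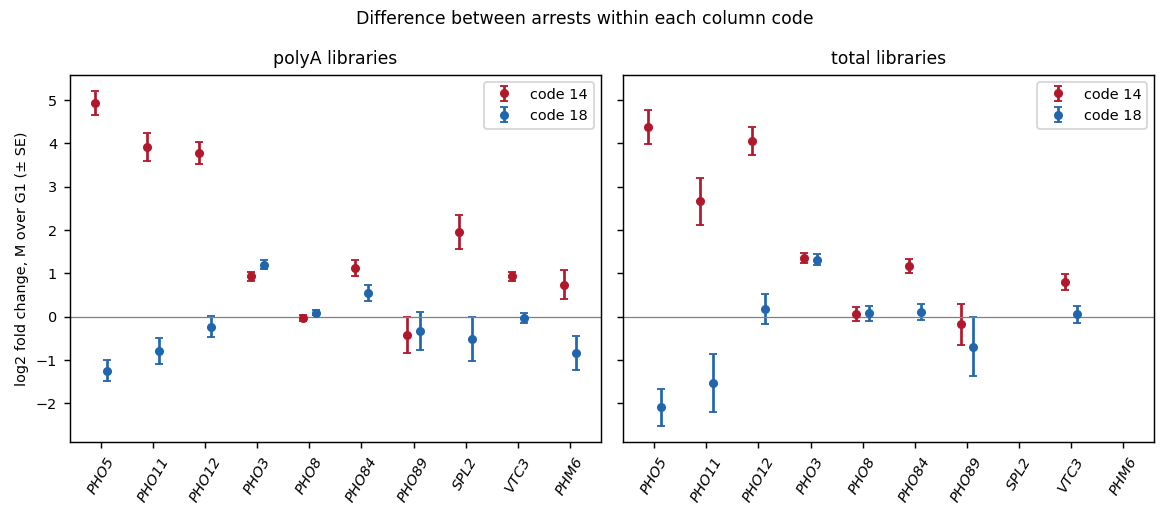
Log2 fold change of M over G1 on the y axis, with SE bars, for each gene in code 14 (red) and code 18 (blue), in polyA libraries at left and total libraries at right, where SPL2 and PHM6 were not tested. PHO5 stands at 4.93 in code 14 and -1.24 in code 18 in polyA RNA, and PHO3 stands at 0.93 and 1.20.

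Between the codes in G1, 6 of 10 were called in polyA RNA, against 15.9% of all genes in either direction. Code 18 was higher for PHO5, PHO11 and PHO12 and lower for PHO8, PHO84 and PHO89. In polyA RNA the repressible acid phosphatases and the importers thus differed in direction, but the calls of PHO11, PHO12 and PHO89 were each lost in some fits without 1 library. The count was 3 without replicate 1 of code 14 in G1. In total RNA, 2 of 8 were called, PHO5 higher and PHO84 lower, against 8.61% of all genes. Between the codes in M, 9 of 10 were called lower in code 18 in polyA RNA, all but PHO3, against 5.54% of all genes called lower. The median log2 fold change of the 10 genes was -2.41, against -0.02 over all genes, and the count was 8 or 9 when any single library was left out. In total RNA, 5 of 8 were called lower (PHO5, PHO11, PHO12, PHO84 and VTC3), against 2.02%. The interaction was called for 4 of 10 in polyA RNA (PHO5, PHO11, PHO12 and VTC3), all in the direction of a smaller M over G1 change in code 18, against 1.32% of all genes in that direction. It was called for 4 of 8 in total RNA (PHO5, PHO11, PHO12 and PHO84), against 1.35%. PolyA and total libraries were made from the same RNA, and the comparisons share cells, so these counts are not independent of each other. Nor are the calls of PHO11 and PHO12 within a count, since most of their read windows are shared.

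**Figure D4:**
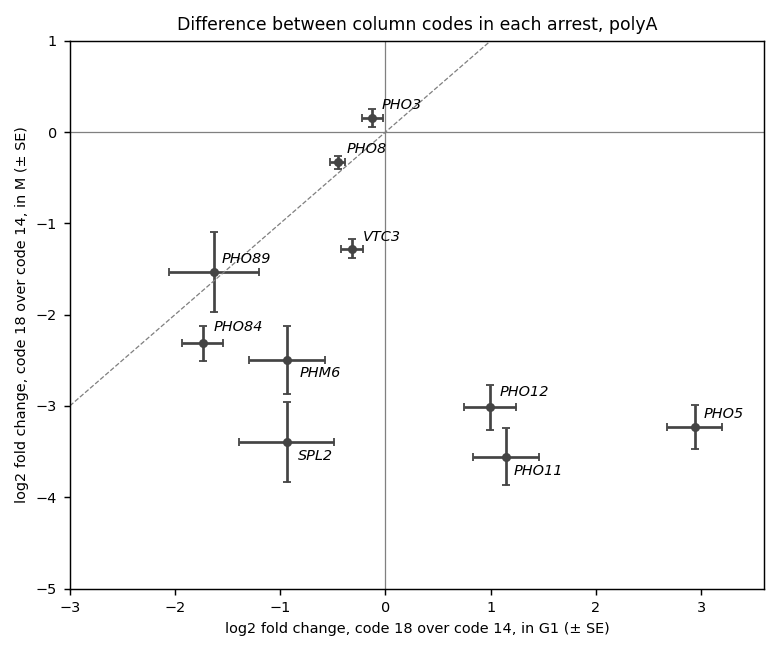
Log2 fold change of code 18 over code 14 in polyA libraries, in G1 on the x axis and in M on the y axis, with SE bars. The dashed line marks equal differences. PHO5, PHO11 and PHO12 lie at the lower right, higher in code 18 in G1 and lower in M, and PHO84 and PHO89 are lower in both.

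The arrest markers also differed between the codes. In M polyA libraries, all 5 pheromone markers were lower in code 18, with a summed level of 128 to 159 CPM against 239 to 312 CPM in code 14. In G1, 2 of the 5 were lower in code 18 (FIG1 and FUS1), with a summed level of 5911 to 9536 CPM against 9900 to 11243 CPM. Among the mitotic markers, SWI5 and CLB2 were lower in code 18 in G1 and CLB1 was higher in M. The summed mitotic level was 128 to 156 CPM against 147 to 169 CPM in G1 and 713 to 785 CPM against 657 to 684 CPM in M. The part of these marker differences in the differences between codes was not tested. In bulk RNA, a change in the share of cells that express a gene and a change in RNA per cell cannot be told apart. Replicate 2 of code 14 in M held the highest polyA level of PHO5, PHO11, PHO12, PHO84, SPL2, VTC3 and PHM6, and it also had the largest share of ribosomal RNA among polyA libraries, 10.5%. Its part in the spread was not tested, but without it the 7 calls within code 14 stood and 8 of 10 genes were called lower in code 18 in M.

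**Figure D5:**
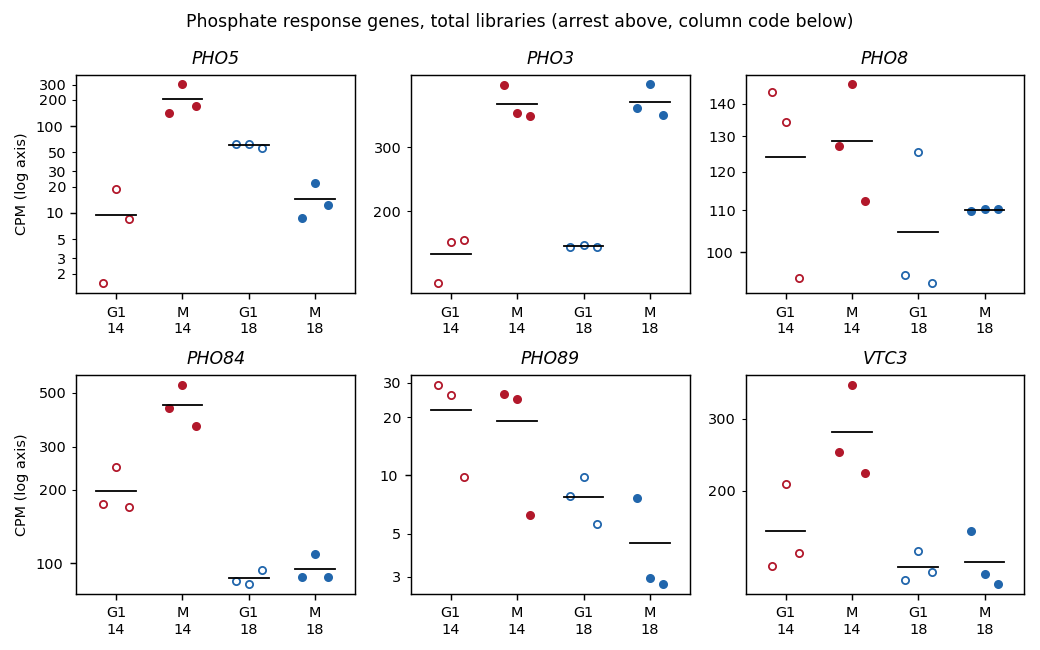
CPM on a log axis in the 12 total RNA libraries for the 6 genes that are neither split by near-identical sequence nor removed by the filter on low counts. Symbols are as in the plot of polyA levels. PHO5 stands at 140 to 301 CPM in M of code 14 and at 8.78 to 22.1 CPM in M of code 18.

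Per kilobase of gene, the order of polyA levels shifted with the cell. PHO3 was the highest in all 4 cells, with 165 ± 7.30 CPM per kb (SD, n = 3) in G1 and 314 ± 28.5 in M of code 14, and 151 ± 5.69 and 349 ± 48.6 in code 18. PHO5 ranked 9 in G1 and 4 in M of code 14, and 4 in G1 and 6 in M of code 18. In M of code 14, PHO84 followed PHO3 with 272 ± 30.5 CPM per kb, then PHO12 with 263 ± 94.7, PHO5 with 178 ± 59.6, VTC3 with 158 ± 26.4 and PHO11 with 105 ± 42.8. The mean ± SD of each of these overlapped that of its neighbours in the order, and PHO8 with 88.3 ± 3.21 overlapped PHO11. PHM6 at 25.4 ± 13.4 lay below PHO8 without overlap, and SPL2 at 20.5 ± 9.69 and PHO89 at 11.2 ± 4.40 followed, each overlapping its neighbour.

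The polyA level relative to the total level of the same RNA is a description only, since the preparations differ. Over the 12 pairs, the median log2 ratio was 0.33 for PHO5, 0.35 for PHO3, 0.41 for VTC3, 0.18 for PHO8 and 0.02 for PHO84, against 0.49 for the median of 4700 genes with at least 120 reads in the total libraries. It was 0.26 for PHO11 (range -1.35 to 3.78) and 0.87 for PHO12 (range 0.075 to 1.24), both uncertain because the reads of the pair were divided.

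The levels of the genes over the 12 polyA libraries followed each other to different degrees. Across the 45 pairs, Pearson's r of log2 CPM ran from -0.19 to 0.96 with a median of 0.65. The 12 points fall into 4 cells, so r mostly reflects cell means. PHO11 and PHO12 had an r of 0.96, which shared reads can raise, and PHO5 had an r of 0.93 with PHO12 and 0.39 with PHO3. Outside the list, the 3 genes most like PHO84 among 5822 were VTC4, CTP1 and LYS4 (r 0.98, 0.97 and 0.96). Those most like VTC3 were VTC4, VTC2 and HHT1 (0.97, 0.97 and 0.95), and for SPL2 they were VTC4, PHO86 and VTC2 (0.93 each). PHM6 was most like VTC1, EMG1 and ZRT1 (0.96, 0.91 and 0.90). For PHO5 they were GPI8, DPB4 and HTB1 (0.89, 0.86 and 0.85), for PHO11 PHO86, CTF19 and HTB1 (0.89, 0.89 and 0.88), and for PHO12 HRP1, CTF19 and DPB4 (0.92, 0.91 and 0.89). PHO3 was most like FUN26, DIC1 and MMR1 (0.98 each), PHO8 like ADE2, ARG56 and MET10 (0.97, 0.96 and 0.96), and PHO89 like HXT5, YCR099C and EXG1 (0.95, 0.94 and 0.94). ADE2 is also named in the OsTIR1 construct of the Ycg1Degron1 strain, and the part of the construct in its likeness to PHO8 was not tested.

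The pathway list held 25 further genes. Between the codes in M, 7 of the 25 were called lower in code 18 in polyA RNA, against 5.54% of all genes. Of the 7 polyphosphate genes, 3 were lower, all from the same complex as VTC3. The other 4, VTC5 among them, were not called. VTC1 was 1.98-fold lower (adjusted p = 0.00103), VTC4 1.93-fold (adjusted p = 1.15e-05) and VTC2 1.40-fold (adjusted p = 0.000327). VTC4, the catalytic subunit, held 337 ± 15.9 CPM (SD, n = 3) in G1 and 490 ± 51.2 CPM in M of code 14, and 240 ± 6.03 CPM and 254 ± 10.8 CPM in code 18. Of the 7 regulators, PHO81, the kinase inhibitor and itself a known Pho4 target, was 1.37-fold lower in code 18 in M (adjusted p = 0.0211), and VIP1, an inositol pyrophosphate kinase, was 1.27-fold lower (adjusted p = 0.0109). PHO86, an endoplasmic reticulum protein needed to export Pho84, was 1.38-fold lower (adjusted p = 0.000922), and GDE1, a glycerophosphodiesterase, was 1.27-fold lower (adjusted p = 0.0437). In G1, 4 of the 25 were called, a share near the 15.9% of all genes, with PHO2 and the glycerophosphoinositol transporter GIT1 higher in code 18 and VTC1 and VTC4 lower. The interaction was called for VTC4 (-0.45, SE 0.11, adjusted p = 0.0428) and PHO86 (-0.49, SE 0.09, adjusted p = 0.0149). In total RNA, 2 of the 24 tested were lower in code 18 in M, against 2.02% of all genes, VTC4 by 1.93-fold (adjusted p = 0.000402) and VTC1 by 1.84-fold (adjusted p = 0.0133).

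With the codes averaged, 7 of the 25 pathway genes were called higher and 6 lower in M in polyA RNA, shares near those of all genes (25.7% higher and 25.4% lower). Of the 7 regulators, 3 were higher and 3 lower. The higher ones were PHO2 (1.34-fold, adjusted p = 9.95e-05), PHO4 (1.29-fold, adjusted p = 0.0101) and PHO85 (1.15-fold, adjusted p = 0.0160), and the lower ones were PHO80 (1.61-fold, adjusted p = 2.75e-05), PHO81 (1.23-fold, adjusted p = 0.00663) and VIP1 (1.11-fold, adjusted p = 0.0327). PHO2 was 1.55-fold higher within code 14 (adjusted p = 0.00014), while its estimate in code 18 was 1.16-fold (adjusted p = 0.0593). The interaction was called for 0 of the 7 regulators in polyA RNA, so a difference between the codes in this change was not shown. The transcript of the cyclin PHO80 was lower in M than in G1 in both codes, 1.71-fold in code 14 (adjusted p = 0.000313) and 1.52-fold in code 18 (adjusted p = 0.00155). PHO4 was called higher in M within code 18 (1.32-fold, adjusted p = 0.0469). It held 20.8 ± 3.28 CPM in G1 and 26.1 ± 1.80 CPM in M of code 14, and 18.0 ± 2.32 CPM and 23.7 ± 3.33 CPM in code 18. The polyphosphatase PPX1 was lower in M in both codes, 1.52-fold in code 14 (adjusted p = 6.23e-05) and 1.54-fold in code 18 (adjusted p = 4.18e-05). With the codes averaged, the other genes called higher were PHM8 (1.68-fold, adjusted p = 0.00157), VTC5 (1.38-fold), VTC4 (1.24-fold) and VTC2 (1.11-fold), and the other genes called lower were the low-affinity importer PHO90 (1.23-fold) and GDE1 (1.15-fold).

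Because PHO3 is controlled by thiamine, 17 thiamine genes were examined beside it. In polyA RNA with the codes averaged, 4 were called higher in M and 4 lower, shares no larger than those of all genes (25.7% and 25.4%). THI73, a putative transporter, was 1.99-fold higher (adjusted p = 0.00225), THI7, the thiamine importer, 1.68-fold (adjusted p = 4.06e-05), and THI2, an activator of the pathway, 1.55-fold (adjusted p = 0.00494). THI12 and THI5, near-identical members of 1 biosynthetic family whose reads may be divided wrongly, were 2.10-fold (adjusted p = 0.0259) and 1.92-fold lower (adjusted p = 0.0119), and THI22 was 1.38-fold lower (adjusted p = 0.00077). Between the codes in G1, 2 of the 17 were called, both lower in code 18, against 8.33% of all genes called lower. They were THI4, an enzyme of thiazole synthesis (5.51-fold, adjusted p = 0.00215), and THI2 (2.09-fold, adjusted p = 0.00824). Between the codes in M, 0 of the 17 were called.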

How the data were processed

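The authors trimmed reads of 76 bp with cutadapt 1.9.1, aligned them with STAR 2.5.2a to R64 and estimated counts by strand with RSEM 1.3.0, which divides shared reads among genes. The deposited table holds 24 columns of expected counts, used here, and 24 of TPM, not used, for 7218 features, of which 92 are ERCC spike-ins. Columns were matched to arrest and library type by name. Expected counts were rounded, and 16 ribosomal RNA features and the spike-ins were left out. Each library type was fitted alone with edgeR 4.0.16 (R 4.3.3): TMM scaling, filterByExpr, 4 cells of arrest and code, quasi-likelihood test, Benjamini-Hochberg adjustment over 5832 genes (polyA) or 4960 (total), threshold 0.05. The fit was tested on simulated data. Contrasts within a code were added after seeing the data. The log2 CPM used for correlations had a prior count of 0.5.

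According to the labels, M samples came from the cultures sampled in G1, so replicate numbers pair arrests within a code. Deviations of paired samples correlated at -0.19 to 0.48 (median 0.13) in polyA and 0.01 to 0.11 in total libraries. Alternatives were DESeq2 (version 1.42.0) and its size factors, no filter, a 1.5-fold minimum, only the cells compared, replicate blocks, ribosomal features kept, and leaving out each library. The 10 genes and all gene lists were chosen with earlier results of these data known. From the other lists, at most 3 genes called per direction and comparison are named, those with the largest change. For each of the 10 genes, the 3 genes most correlated with it over the polyA libraries are also named. P-values measure the spread between 3 cultures of a code within an arrest, pooled over the cells of a library type. The G1 and M cells of a code hold the same cultures. The main fit had no block for this pairing, so it treated paired samples as independent.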

Additional observations from a re-analysis of the deposited data

Results flagged for a closer look

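Of 40 groups of 6 libraries (each gene in each arrest and library type, with both codes together), 3 held a library far from the others by Dixon's criterion (0.625 for 6 values). The criterion's chance rate of about 1 in 20 assumes 6 values from 1 population. It does not carry over here, because the codes were pooled and differed for many of these genes. A gap between the codes can also hide a library that is far from the others of its code. In G1 total RNA, PHO3 was lowest in replicate 1 of code 14 at 127 CPM, and VTC3 was highest in replicate 2 of code 14 at 208 CPM. In M total RNA, PHM6 was highest in replicate 2 of code 14 at 9.66 CPM, which rests on 7 reads.

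The M over G1 change differed between the codes by the interaction test in polyA RNA for PHO5 (-6.17), PHO11 (-4.70), PHO12 (-4.01) and VTC3 (-0.96), on the log2 scale. In total RNA it differed for PHO5 (-6.47), PHO11 (-4.20), PHO12 (-3.88) and PHO84 (-1.06). PHO5 was called in opposite directions in the codes in both library types.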

How the results depend on the processing

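Counts of the 10 genes called stayed within 1.5 times under the size factors of DESeq2, no filter, the 1.5-fold minimum, only the cells compared and ribosomal features kept. With DESeq2's own test the interaction in total RNA was called for 1 gene in place of 4, where only 976 genes and 3 of the 10 had an adjusted p. With the replicate block by number alone, which does not pair the codes by design, 4 genes in place of 2 differed between codes in G1 total RNA. The block within a code (pairing arrests) also brought SPL2 past the threshold in M against G1 in polyA RNA (adjusted p = 0.0133 in place of 0.0836), and changed no call beyond those named. Within code 18, an alternative chosen after seeing the data, 3 genes were called in place of 6 (polyA) and 2 in place of 5 (total). Directions turned there in polyA RNA for PHO5 (-1.24), PHO11 (-0.79), PHO12 (-0.23), SPL2 (-0.51) and VTC3 (-0.027), and in total RNA for PHO5 (-2.09) and PHO11 (-1.53). Within code 14, PHO8 (-0.024) and PHM6 (0.73) turned in polyA RNA.

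Leaving out 1 library at a time gave 6 to 7 genes called for M against G1, 3 to 8 between codes in G1, 8 to 9 in M and 4 to 5 for the interaction in polyA RNA, and 3 to 5, 2 to 3, 5 to 6 and 3 to 4 in total RNA. Within code 14 it gave 7 in every case (polyA) and 5 to 6 (total), and within code 18 it gave 2 to 5 and 2 to 3. Directions that turned were all of uncalled log2 fold changes. In polyA RNA they ran from -0.31 to 0.10 for PHM6 (M against G1), from -0.093 to 0.038 for PHO8 (within code 14) and from -0.23 to 0.52 for PHO89 (interaction). In total RNA, M against G1 ran from -0.11 to 0.82 for PHO11 and from -0.0062 to 0.15 for PHO8, within code 14 from -0.10 to 0.18 for PHO8 and from -0.53 to 0.24 for PHO89, and within code 18 from -0.30 to 0.49 for PHO12 and from -0.097 to 0.15 for VTC3. Also in total RNA, PHO3 ran from -0.051 to 0.13 between codes in G1, from -0.062 to 0.11 in M and from -0.13 to 0.072 for the interaction, and PHO8 from -0.10 to 0.19 for the interaction. The cause of these changes was not tested.

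Total libraries had at most 929948 reads outside ribosomal RNA. SPL2 and PHM6 were removed there by the filter on low counts. Without the filter all 10 genes had an adjusted p, and 6 in place of 5 were called between codes in M, the added gene being PHO89.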
